A study of Arabidopsis thaliana with 6 samples.

Results

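Xyloglucan endotransglucosylases/hydrolases (XTHs) are secreted enzymes of the plant cell wall, and their transcripts were compared between wild-type (FRB1) and frb1-1 seedlings of Arabidopsis. The list held 10 XTH loci. A probe set of the ATH1 array was taken for a locus where the annotation of the array, or else the published gene table, gave it to this locus alone. By this rule 4 of the 10 loci had a probe set, out of 22810 probe sets in all. These are XTH16 (AT3G23730), XTH18 (AT4G30280), XTH19 (AT4G30290) and XTH23 (AT4G25810). The other members of the list, XTH4, XTH5, XTH15, XTH17, XTH22 (TCH4) and XTH24, were not analysed here. The annotation of the array named the probe sets of XTH16, XTH18 and XTH19. The probe set of XTH23 was named only by the published table of genes changed in frb1-1, which also holds XTH19, and that table was made from these same arrays. The values of these genes are therefore not independent evidence of their direction.

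The arrays measured total RNA of whole Col-0 seedlings after 10 days of growth on half-strength MS medium in constant light, with 3 arrays of the wild type and 3 of the mutant. The labels call the replicates biological and name the mutant frb1, and the study's methods give the allele as frb1-1. This allele carries a T-DNA in the region upstream of At5g01100, the FRB1 gene, and the study takes it as probably a partial loss of function, from a faint transcript band. The mutant arrays come from this single allele, and how many seedlings were pooled is not given in the sources used here.

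Xyloglucan is the main hemicellulose of the primary wall in Arabidopsis and coats and tethers cellulose microfibrils. An XTH cuts a xyloglucan chain and joins the cut end to another xyloglucan chain, or to water, and so can loosen or reinforce a growing wall. The family is large, and its members differ in where and when they are transcribed. XTH16 belongs to the members linked to growth of aerial organs (growth type). XTH18 and XTH19 belong to a group known from roots and auxin responses (root type), and they are consecutive genes on chromosome 4, next to XTH24. XTH23 is a close relative of TCH4, the XTH gene named for its response to touch (touch type).

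Of the 4 genes, only XTH19 passed the test. XTH19 rose in frb1-1 seedlings, with a log2 fold change of 1.86 (SE, the standard error, 0.25, and adjusted p = 0.00871 by limma). XTH23 and XTH18 had higher means in frb1-1 without passing the test, with log2 fold changes of 0.98 and 0.47, and XTH16 had a lower mean, with a log2 fold change of -0.71. The log2 fold change is the difference of mean log2 signals, frb1-1 minus wild type. It was tested with limma over the 15218 probe sets whose log2 signals averaged at least 6, with p-values adjusted over all of these by the Benjamini-Hochberg method at a threshold of 0.05. Among all probe sets tested, 0.276% were higher and 0.092% were lower in frb1-1 by this rule, against 1 higher gene and none lower among the 4, and the published table had picked the higher gene from the same arrays. The median log2 fold change of the 4 genes was 0.73, against 0.01 for all probe sets tested. XTH23 is among the 4 only through that table, so that nothing is read from this median.

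**Figure D1:**
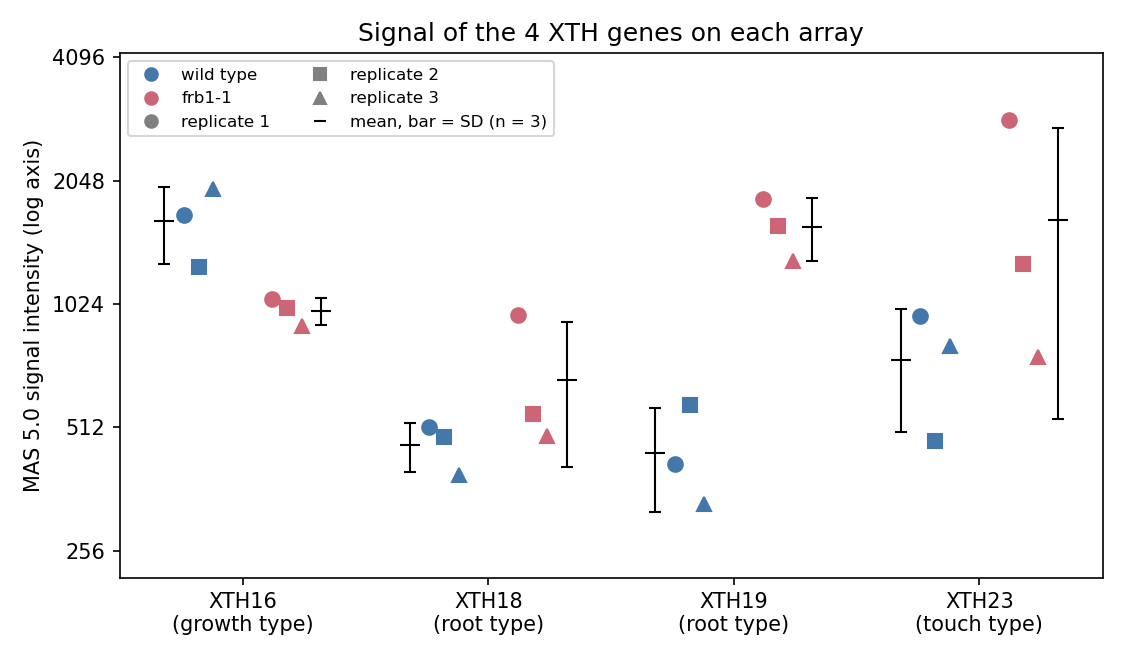
Signal intensity of XTH16, XTH18, XTH19 and XTH23 on each array, on a log axis, with 3 wild-type (blue) and 3 frb1-1 (red) arrays, a symbol for each replicate number and the mean with its SD (n = 3). The frb1-1 arrays lie above all wild-type arrays for XTH19 and below them all for XTH16, and the genotypes overlap for XTH18 and XTH23.

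Among the root type genes, XTH19 gave the clearest separation of the genotypes. XTH19 had signals of 417, 582 and 334 on wild-type replicates 1, 2 and 3, and of 1853, 1590 and 1301 on frb1-1 replicates 1, 2 and 3. Every frb1-1 array was above every wild-type array, and the lowest mutant signal was 2.24 times the highest wild-type signal. The mean signal was 444 ± 126 in wild-type seedlings against 1581 ± 276 in frb1-1 (SD, n = 3 each), a ratio of 3.56. The 95% interval of the log2 fold change ran from 1.30 to 2.41. Among all probe sets tested, 20 had a smaller p, since XTH19 stood at rank 21. XTH19 lost this call when wild-type replicate 1 was left out (adjusted p = 0.0637 by limma), when frb1-1 replicate 1 was left out (0.0726) and with no mean-variance trend in the test (0.0529), while the log2 fold change stayed between 1.67 and 2.07 when any 1 array was left out.

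XTH18, the gene beside XTH19, showed no such separation. Its signals were 513, 484 and 392 on wild-type replicates 1 to 3, and 964, 550 and 489 on frb1-1 replicates 1 to 3. Only frb1-1 replicate 1 was well above the wild type, and frb1-1 replicate 3 fell below the highest wild-type array. The mean signal was 463 ± 63.3 in wild-type seedlings against 668 ± 258 in frb1-1 (SD, n = 3 each). The log2 fold change was 0.47 (SE 0.28, 95% interval -0.14 to 1.08, adjusted p = 0.996 by limma). Without frb1-1 replicate 1 the log2 fold change was 0.17. Sequences of the probes were not used, so that the part of cross-hybridization between these neighbouring genes in either signal was not tested.

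XTH23, of the touch type, had the widest spread of the 4 genes among frb1-1 arrays. Its signals were 958, 474 and 809 on wild-type replicates 1 to 3, and 2889, 1284 and 761 on frb1-1 replicates 1 to 3. The first frb1-1 array was 3.79 times the last one, which lay within the range of the wild type. The SD of the log2 signal of XTH23 was 0.97 over the frb1-1 arrays, and only 1.47% of all probe sets tested had a larger one in frb1-1. The mean signal was 747 ± 248 in wild-type seedlings against 1645 ± 1109 in frb1-1 (SD, n = 3 each), and the log2 fold change of 0.98 had a SE of 0.42, a 95% interval of 0.05 to 1.91 and an adjusted p of 0.818 by limma. It was 0.47 without frb1-1 replicate 1 and 1.43 without frb1-1 replicate 3. XTH23 did not pass the threshold under any alternative that was run.

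XTH16, the growth type gene with a probe set, was the only one of the 4 with a lower mean in frb1-1. Its signals were 1690, 1258 and 1950 on wild-type replicates 1 to 3, and 1053, 999 and 907 on frb1-1 replicates 1 to 3. All frb1-1 arrays were below all wild-type arrays, and the frb1-1 arrays lay close to each other. The mean signal was 1633 ± 350 in wild-type seedlings against 986 ± 73.8 in frb1-1 (SD, n = 3 each), a ratio of 0.604. The log2 fold change was -0.71 (SE 0.22, 95% interval -1.19 to -0.22), and the p from limma was 0.00812 before adjustment (adjusted p = 0.462 by limma), so that a fall of XTH16 is not shown at the threshold used. The adjusted p was between 0.209 and 0.999 under the alternatives. XTH16 and XTH19 are thus 2 of 4 genes with groups that do not overlap, 1 in each direction, where 10.9% of all probe sets tested had such groups, 6.26% with all frb1-1 arrays above the wild type and 4.65% with all of them below it. Without frb1-1 replicate 3, all 4 genes had such groups, but on that array XTH18 and XTH23 lay within the wild-type range. Groups also separate more easily with fewer arrays, and the share over all probe sets was not computed for this setting. Before adjustment, XTH16, XTH19 and XTH23 had a p under 0.05 by limma, as had 5.96% of all probe sets tested. The published table made from these arrays holds XTH19 and XTH23, and XTH23 has a probe set only through it. Nothing is therefore read from this count.

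At a ratio of mean signals of 2 or more, the fold used in the study, XTH19 (3.56) and XTH23 (2.20) were higher and none of the 4 was lower, beside 1.18% of all probe sets tested that were higher by this rule and 0.48% that were lower. The published table that holds both genes was made from these arrays with such a fold, and XTH23 has a probe set only through it, so that nothing is read from this count. Without frb1-1 replicate 1 or without wild-type replicate 2, only 1 of the 4 genes reached a fold of 2. The same count came from geometric means, which weigh the arrays evenly on the log scale.

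To compare the root, touch and growth type genes with each other, the log2 ratio of 2 genes was taken within each array and compared between the genotypes. Such a ratio does not depend on the scaling of the array, and its change is the difference between the log2 fold changes of the genes. All 6 pairs were compared over arrays with a two-sided exact permutation test, 3 against 3, whose smallest possible p is 0.10, so that no pair could pass a threshold of 0.05. The largest difference was between XTH16 and XTH19, the growth and the root type gene. Their log2 ratio was lower by 2.56 in frb1-1 (SE 0.43, exact p = 0.10, adjusted over the 6 pairs 0.15), with a range of 1.11 to 2.55 in the wild type and of -0.82 to -0.52 in frb1-1. The ratio was thus shifted on every mutant array by more than the wild-type arrays spread.

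For the consecutive root type genes, the log2 ratio of XTH18 to XTH19 was -0.27 to 0.30 on the wild-type arrays and -1.53 to -0.94 on the frb1-1 arrays, a difference of -1.38 (SE 0.25, exact p = 0.10, adjusted 0.15). The groups did not overlap, and the test does not show a difference at the threshold. The difference stayed between -1.56 and -1.27 when any 1 array was left out. XTH16 separated from XTH23 (difference -1.69, SE 0.53) and from XTH18 (difference -1.18, SE 0.37) with groups that do not overlap either, each at an exact p of 0.10 (adjusted 0.15). Every pair with such groups holds XTH16 or XTH19, whose own groups do not overlap. These separations are therefore not evidence apart from the single genes, and the share over pairs of other probe sets was not computed. XTH23 was not separated from the root type genes. The difference was -0.51 for XTH18 minus XTH23 (SE 0.44, exact p = 0.40) and 0.87 for XTH19 minus XTH23 (SE 0.66, exact p = 0.20), with overlapping groups, and the SEs leave room for a difference in response of over 1 on the log2 scale in both pairs.

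**Figure D2:**
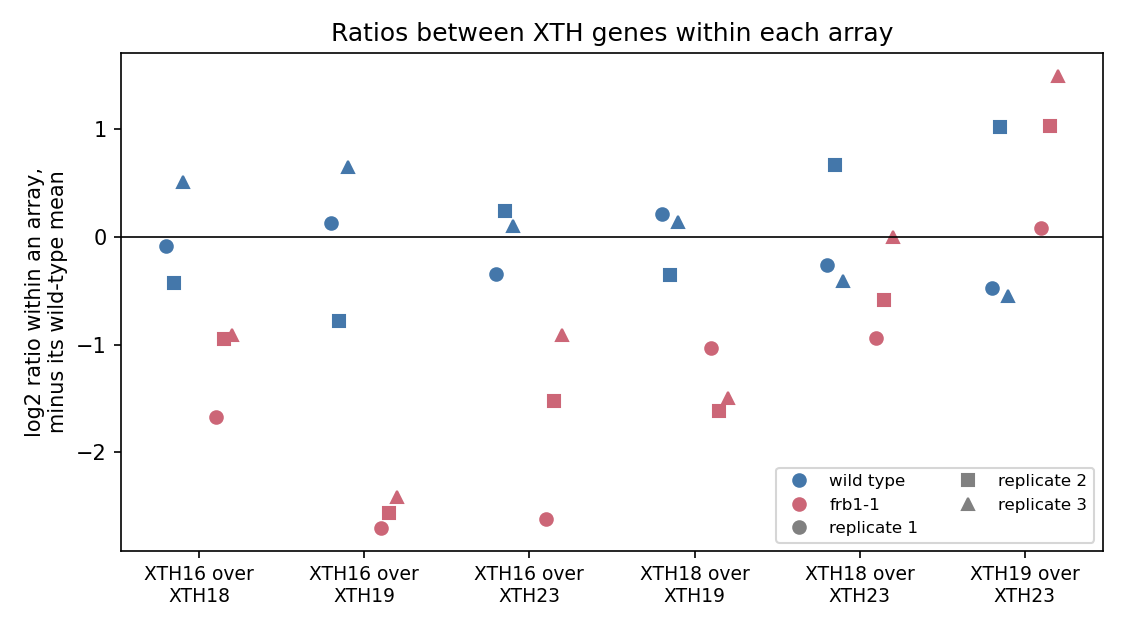
Log2 ratio between 2 XTH genes within an array, minus the wild-type mean of that ratio, for 6 pairs of genes and 3 arrays of each genotype. For the 3 pairs with XTH16 and for XTH18 over XTH19, all frb1-1 arrays (red) lie below all wild-type arrays (blue), and for both remaining pairs they overlap.

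Most of the other 23 XTH genes of Arabidopsis could not be tested. The annotation named a probe set for 7 of them, and 4 passed the minimum signal. Of these 4, none was higher or lower at an adjusted p under 0.05 by limma, also without adjustment. Over all probe sets tested, 0.276% were higher and 0.092% were lower, and 5.96% had an unadjusted p under 0.05 by limma. Nothing is therefore read from the lack of calls among so few genes. The log2 fold changes ran from 0.07 to 0.17, and the genotypes overlapped for each. The highest belonged to XTH20, like XTH18 and XTH19 a root type gene, with 139 ± 7.86 in wild-type seedlings against 158 ± 26.3 in frb1-1 (SD, n = 3 each) (log2 fold change 0.17, SE 0.29). The lowest belonged to XTH27, with 5220 ± 176 in wild-type seedlings against 5522 ± 923 in frb1-1 (SD, n = 3 each) (log2 fold change 0.07, SE 0.19, 95% interval -0.35 to 0.49). XTH21, XTH26 and XTH29 had signals too low to be tested.

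XTHs act on xyloglucan made in the Golgi, where CSLC proteins build the glucan backbone and other transferases add its side chains. A list of 15 genes of xyloglucan synthesis had 5 genes with a probe set, all of them CSLC genes, and 1 of 4 genes of xyloglucan trimming had one. None of these 6 was called higher or lower, and none had an unadjusted p under 0.05 by limma. The shares over all probe sets tested were 0.276% higher, 0.092% lower and 5.96% with an unadjusted p under 0.05 by limma. With so few genes, nothing is read from the lack of calls. The highest log2 fold change was that of CSLC4, the main backbone synthase, with 1086 ± 106 in wild-type seedlings against 1331 ± 298 in frb1-1 (SD, n = 3 each) (log2 fold change 0.27, SE 0.22). The lowest was that of CSLC6, with 427 ± 12.9 in wild-type seedlings against 338 ± 40.1 in frb1-1 (SD, n = 3 each) (log2 fold change -0.34, SE 0.22). All frb1-1 arrays of CSLC6 were below all wild-type arrays, as for 4.65% of all probe sets tested. BGLC1, a glucosidase that degrades xyloglucan fragments, was at -0.10 (SE 0.26) on the same scale. The xylosyl-, galactosyl- and fucosyltransferases of the side chains were not analysed here.

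**Figure D3:**
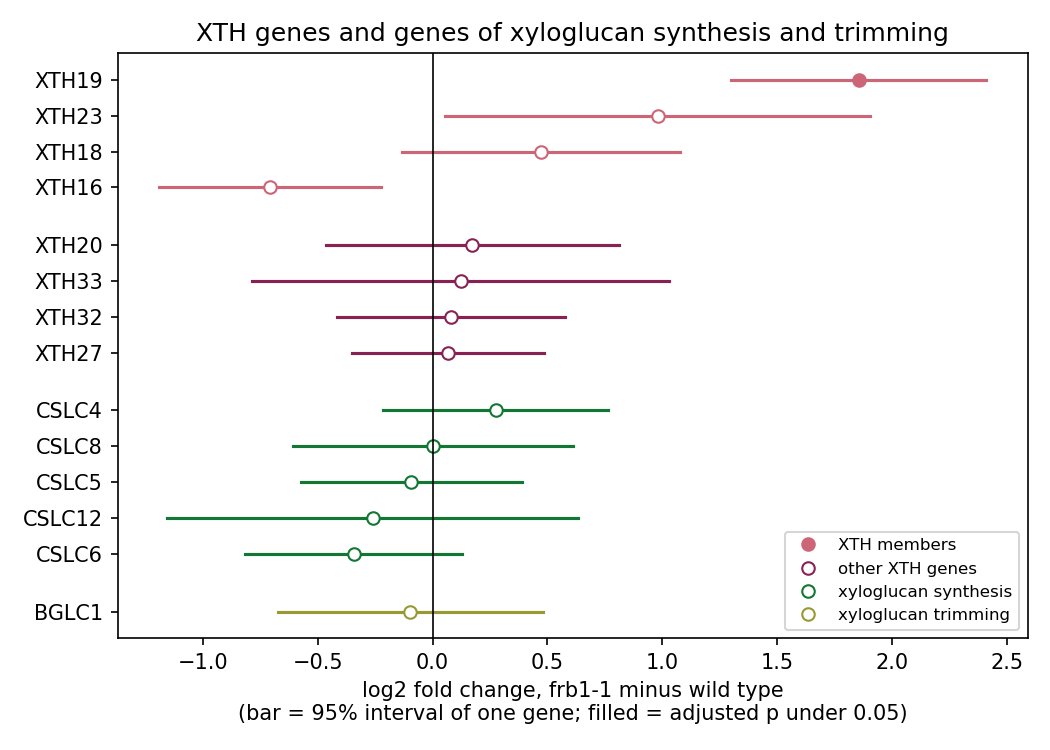
Log2 fold change, frb1-1 minus wild type, of the XTH genes and of genes of xyloglucan synthesis and trimming, each from 3 arrays of each genotype, with bars for the 95% interval of the single gene and a filled point for an adjusted p under 0.05. XTH19, at 1.86, is the only filled point, and the tested genes among the other XTH genes (purple) lie between 0.07 and 0.17.

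TCH4 and related XTH genes respond quickly to touch, wounding or cold, as do genes of calcium sensing and stress signalling. A list of 19 such genes, without XTH22 and XTH23, had 6 with a probe set, and 5 passed the minimum signal. Of the 5, 2 rose and none fell in frb1-1, and 4 had groups that do not overlap, beside 0.276% of all probe sets tested that were higher and 10.9% whose groups did not overlap. ERF104 and SZF1 have a probe set only through the published table, which picked them as changed on these arrays, and of the 3 others 1 rose and 2 had groups that do not overlap. Of these 2, CML38 averaged 5.01 in the wild type and 7.65 in frb1-1 on the log2 scale. It thus passed the minimum of 6 only through frb1-1, and nothing is read from its groups. STZ, a zinc finger repressor of transcription, had signals of 172, 209 and 330 on wild-type replicates 1 to 3, and of 773, 720 and 1129 on frb1-1 replicates 1 to 3. The rise was 1.91 on the log2 scale, with an SE of 0.29 (adjusted p = 0.0149 by limma). ERF104, an ethylene response factor, rose by 1.93 with an SE of 0.28 (adjusted p = 0.0110), with 275, 473 and 588 in the wild type and 1720, 1536 and 1601 in frb1-1. The highest log2 fold change was that of CML38, a calmodulin-like calcium sensor, at 2.64 (SE 0.54, adjusted p = 0.0739), but its wild-type signals, 19.4 to 60.2, are near background, so that this fold is not exact. The lowest was that of WRKY53, at 0.38 (SE 0.46). Without frb1-1 replicate 1, none of the 5 passed the threshold, and 1 passed it when either of the wild-type replicates 1 and 2, or frb1-1 replicate 3, was left out.

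SZF1, a zinc finger gene of the list that was singled out after its values were seen, had signals of 1472, 734 and 1135 on wild-type replicates 1 to 3, and of 3629, 2099 and 1907 on frb1-1 replicates 1 to 3. As for XTH23, the lowest wild-type signal was on replicate 2 and the highest mutant signal on replicate 1, but all frb1-1 arrays of SZF1 were above the wild type, which was not so for XTH23. Its log2 fold change was 1.19, with an SE of 0.31 (adjusted p = 0.230). STZ and ERF104 were both lowest on wild-type replicate 1, where XTH23 was highest among wild-type arrays.

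The pattern of each gene was also set against all tested probe sets with a single gene name, by Pearson's correlation of log2 signals over the 6 arrays. With 6 points and 8267 candidates, high values arise easily, and they are given as a description. The nearest to XTH23 were At5g08350 (r = 0.984), PHI-1 (At1g35140, r = 0.980) and At1g11360 (r = 0.971). PHI-1, a phosphate-induced gene of the EXORDIUM family, had signals of 1436, 687 and 1155 in wild-type replicates 1 to 3 and of 3698, 2378 and 1169 in frb1-1 replicates 1 to 3, again with the last frb1-1 array in the range of the wild type. The nearest to XTH19 were At5g50180 (r = 0.997), At3g15720 (r = 0.992) and At1g13990 (r = 0.991). At3g15720 was at 37.9 to 68.4 in the wild type and at 175 to 234 in frb1-1. It passed the minimum mean log2 signal of 6 only through frb1-1, and nothing is read from its likeness to XTH19. The nearest to XTH16 were At1g75230 (r = 0.986), At4g02450 (r = 0.984) and BCAT4 (At3g19710, r = 0.981), an aminotransferase of glucosinolate synthesis, which had 1881 to 2748 in the wild type and 1196 to 1325 in frb1-1. None of these 9 genes passed the threshold in limma.

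**Figure D4:**
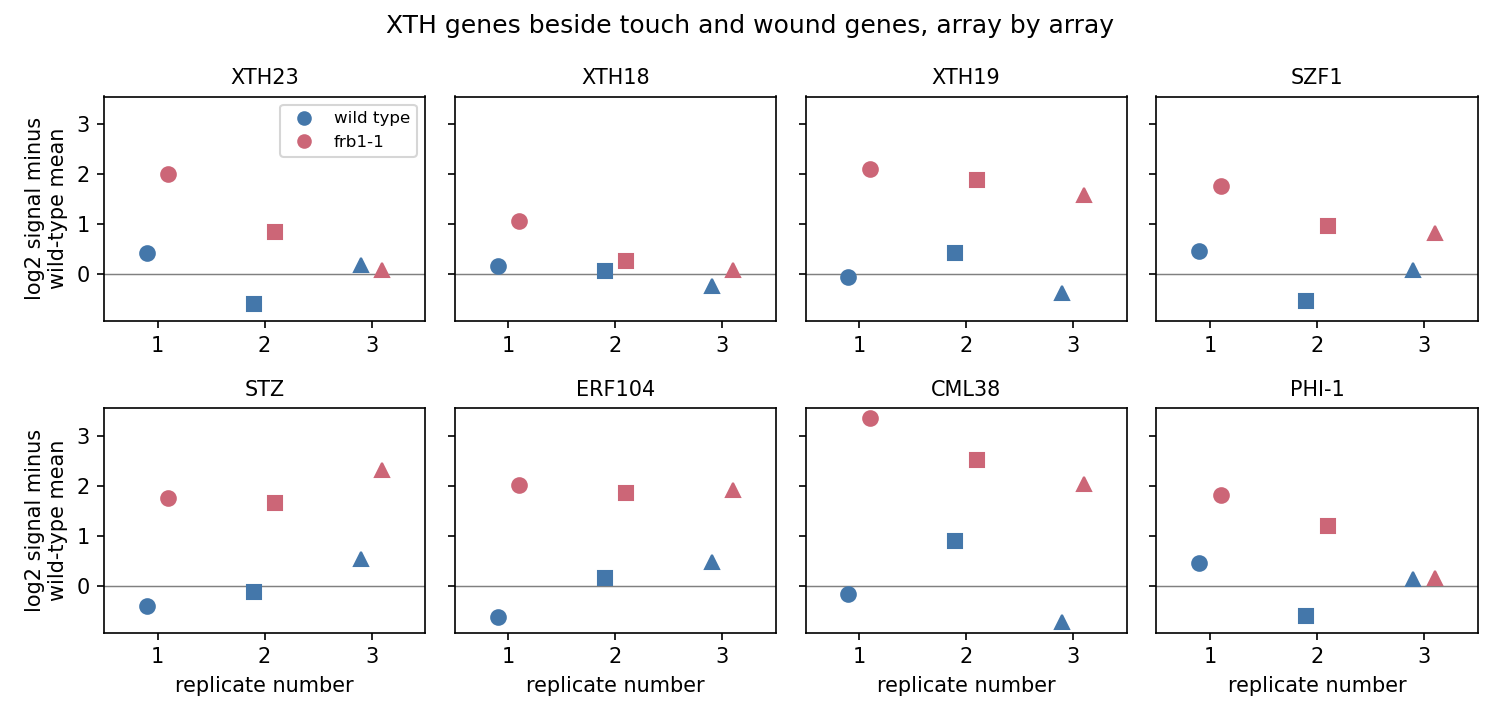
Log2 signal minus the wild-type mean on each of 3 wild-type (blue) and 3 frb1-1 (red) arrays, by replicate number, for XTH23, XTH18, XTH19, the touch and wound genes SZF1, STZ, ERF104 and CML38, and PHI-1. The remaining tested touch and wound gene, WRKY53, is not shown (log2 fold change 0.38, overlapping groups). For XTH23 and PHI-1, frb1-1 replicate 1 is highest and frb1-1 replicate 3 is at the level of the wild type, whereas for XTH19, STZ and ERF104 all frb1-1 arrays are at least 1.59 above the wild-type mean.

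Whole seedlings hold roots and shoots in proportions that can differ between genotypes, and for such samples a change in the share of an organ and a change of transcript per cell cannot be told apart. Of 14 root markers, 4 had a probe set, and of 8 shoot markers 1 had one. The root markers were well above the minimum signal on every array. Their summed signal was 20633 to 24270 on the wild-type arrays and 20134 to 27915 on the frb1-1 arrays, most of it from PYK10, a beta-glucosidase of ER bodies, at a log2 fold change of 0.07 (SE 0.18). None of the 4 root markers was called, beside 0.276% higher and 0.092% lower among all probe sets tested, so that nothing is read from this count. Their log2 fold changes ran from -0.58 for F6'H1 (SE 0.32), an enzyme of coumarin synthesis, to 0.13 for EXPA7 (SE 0.24), an expansin of root hairs. RCA, the rubisco activase of green tissue, was at 22730 to 31295 in the wild type and at 16255 to 23642 in frb1-1. Its log2 fold change was -0.41, with an SE of 0.20 (adjusted p = 0.889 by limma), and the part of the organs in the XTH signals was not tested.

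The trimmed mean of the signals was about 500 on every array, and the median was 154 to 199. The arrays of a genotype correlated from 0.918 to 0.972 over the log2 signals tested, and arrays of different genotypes from 0.920 to 0.962. For single genes, the exact permutation test over arrays gave p = 0.10 for XTH16 and XTH19, the smallest value it allows, 0.20 for XTH18 and 0.30 for XTH23.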

How the data were processed

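RNA of 3 wild-type and 3 frb1-1 samples was hybridized to ATH1 arrays. Each deposited value is a linear signal intensity of 1 probe set, for which the authors used MAS 5.0 with a target of 500. The table holds all 22810 probe sets. For their own analysis the authors dropped those with an absent call on any array. Detection calls were not used here. The 64 control probe sets were left out, and the log2 signals of 15218 probe sets, those averaging at least 6 (a signal of 64), were tested without a pseudocount. The test was lmFit and eBayes of limma 3.58.1 under R 4.3.3, with trend = TRUE. The test was checked on simulated data. The number of arrays limits the precision.

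A single gene was annotated for 13513 probe sets and more than 1 for 503. The gene table published with the study named 53 others. Gene order and locus names follow TAIR10.1. Coordinates are left out because no build is named for the arrays. No columns of the authors' own comparisons were used. Named are the XTH genes of the list, the called members and the highest and lowest log2 fold change of each other list, and the 3 probe sets most correlated with XTH16, XTH19 and XTH23. SZF1 and CML38 values by array, and the untested XTH21, XTH26 and XTH29, were chosen after their values were seen. The XTH genes and the lists were chosen with earlier results of these data known, and the types by general knowledge.

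Alternatives were median scaling, quantile normalization, no filter, a minimum of 7 in place of 6, a pseudocount of 32, a replicate block, no mean-variance trend, array weights, each array left out, geometric means and an exact permutation test. A fit on replicates 1 and 2 alone was added later, with the data known.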

Additional observations from a re-analysis of the deposited data

How the results depend on the processing

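XTH19 had a log2 fold change of 1.67 to 2.07 in all 15 alternatives fitted with limma and kept its call in 12. The exact permutation test is not counted among these, since its smallest possible p of 0.10 allows no call. It lost the call without the mean-variance trend (adjusted p = 0.0529, log2 fold change 1.86, 0 XTH genes called), without wild-type replicate 1 (1.83) and without frb1-1 replicate 1 (1.73). Without 1 array, 0 to 1 of the XTH genes were called higher (0 without wild-type replicate 1 or frb1-1 replicate 1), 2 to 4 had groups that do not overlap and 1 to 2 differed at least 2-fold by mean signal, against 1 on geometric means. Groups separate more easily with an array left out, and the share over all probe sets was not computed there. No XTH gene was called lower under any alternative, and no log2 fold change or difference between XTH genes changed sign. With both replicate-3 arrays left out, the adjusted p from limma was 6.65e-04 for XTH19 and 0.0506 for XTH23 (log2 fold change 1.52). Of the rapid touch and wound genes, 0 were called without the trend, 0 to 2 without 1 array and 4 with the replicate block. The cause of these shifts was not tested. Arrays of the same replicate number shared deviations from their group means with correlations of 0.0413, 0.28 and 0.325. Arrays of unlike number were not compared in this way, so that these values do not settle whether the arrays are pairs. The labels name no pairs, and the main test used none. The replicate block gave an adjusted p of 4.66e-04 for XTH19, 0.209 for XTH16, 0.608 for XTH18 and 0.193 for XTH23, and raised the calls over all probe sets from 42 to 107 higher and from 14 to 31 lower. No scaling moved the median of all probe sets by over 0.1. Signals near background limit CML38 and At3g15720, and detection calls were not used.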
